A study of Caenorhabditis elegans with 2 samples.

Results

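The nuclear pore, Ran and importin genes of Caenorhabditis elegans were taken as the genes of the deposited splicing-defect table whose symbol is npp, ran, ima, imb or xpo followed by a number. The rule uses names alone and no measured value. It found 36 genes of 19487, namely 22 npp, 5 ran, 3 ima, 3 imb and 3 xpo genes. RNA came from mixed-stage embryos of strain BW1943, isolated by bleaching from worms kept at 25 °C or at 16 °C. Both groups carry gad-1(ct226), a mutation in a gene for a WD-repeat protein that the study places with the splicing complex NTC, and dpy-11(e224), a body-shape marker, so every value below is from mutant embryos. No wild-type embryos were analysed here, and an effect of temperature cannot be told apart from an effect of the mutation. There was 1 library per temperature and therefore no replicate check. All intervals are exact 95% intervals that cover counting error only.

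A nuclear pore is built from nucleoporins, many of which are the npp genes in the worm. Scaffold nucleoporins form stacked rings anchored in the nuclear envelope, and nucleoporins rich in phenylalanine-glycine (FG) repeats fill the channel and select what passes. Importins carry proteins in and exportins carry cargo out, and the small GTPase Ran, loaded with GTP in the nucleus and with GDP in the cytoplasm, sets the direction. In the early embryo pores and the lamina are taken apart and rebuilt at each division, and between divisions mRNA reaches the cytoplasm through pores.

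Reads in genes numbered 18175617 at 25 °C and 22016818 at 16 °C, and intron reads were 2.47% of them at 25 °C and 1.43% at 16 °C. The 36 genes took 1.12% of the reads at 25 °C and 0.861% at 16 °C. All 16 maternal and early embryo markers had reads, with a summed exon level of 1871 CPM (counts scaled to the library total) at 25 °C and 1788 at 16 °C, and 0 of the 16 differed by 2-fold. Markers of early zygotic transcription such as end-1 and pes-10 summed to 53.8 CPM at 25 °C and 150.4 at 16 °C, and 8 of 9 with enough reads were at least 2-fold lower at 25 °C. Late embryo tissue markers summed to 3080 CPM at 25 °C and 3582 at 16 °C, and 7 of 14 were at least 2-fold lower at 25 °C. Over all genes with enough reads, 33.6% were at least 2-fold lower at 25 °C and 5.81% at least 2-fold higher. Larval, adult and sperm markers summed to 70.8 CPM at 25 °C and 107.9 at 16 °C. Most of that sum was daf-22, singled out after its values were seen, and the other 8 summed to 23.8 CPM at 25 °C and 19 at 16 °C. Of the 5 of these markers with enough reads 1, the yolk protein gene vit-3, was at least 2-fold higher at 25 °C and 0 lower, and the adult collagen col-19 had 1 read at 25 °C and 0 at 16 °C. Levels of most early zygotic markers and of some other markers thus differed between the libraries. No marker list was tested against the shares of all genes, and the part of the markers in the results below was not tested. In such bulk samples fewer cells of a type and less RNA per cell cannot be told apart.

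Introns of these transport genes were read more often at 25 °C, relative to their exons, in 35 of 36 genes (97.2%), beside 80.4% of all genes tested and 89.6% of genes within the same range of exon reads. The ratio of intron to exon reads rose in 32 genes and fell in 0 by a two-sided Fisher exact test with Benjamini-Hochberg adjustment over 14972 genes with at least 10 combined reads. That test compares the reads of 2 libraries, not the temperatures. No gene of the 36 had a lower ratio at an unadjusted p under 0.05 either, so the count there is also 0. Over all genes tested 28.1% rose and 0.614% fell. The share called grows with the number of reads, and 34 of the 36 genes belong to the highest quartile of exon reads. Among the 5040 genes within the 36 genes' own range of exon reads, 1620 to 41169 in both libraries together, 55.3% rose and 0.833% fell, and 61.4% rose of those that also had at least 20 intron reads. In the highest quartile of exon reads, 2242 of 3742 genes rose and 24 fell. The 36 genes had more reads on average than the genes of that quartile or of that range. None of these shares is therefore fully matched for reads. Beside them the 32 of 36 make 88.9%.

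The size of the difference was moderate in most of the 36 genes. Their median log2 ratio, with 0.5 reads added to each count, was 1.35 (2.54-fold), with quartiles of 0.75 and 1.97, beside a median of 1.06 over all genes tested and 1.05 within the same range of exon reads. The ratio was at least 2-fold higher in 24 genes, and its counting interval lay above 2 in 13. No share of other genes is given for either count, and the second also depends on the number of reads. The median gene was also past 2-fold over all genes tested (2.09-fold) and within the same range of exon reads (2.06-fold). Of all genes tested, 6984 had at least 20 intron reads. In the rest the added 0.5 reads can weigh on the ratio, and so on the 80.4% given above. With at least 20 intron reads the median log2 was 0.97 over all genes, just under 2-fold. It was 1.05 within the same range and 1.33 in 35 of the 36 genes. A ratio past 2-fold is therefore not particular to these genes. Intron reads scaled by the library total were higher at 25 °C in 35 genes (97.2%). The same held for 68.6% of all genes tested and 83.7% within the same range of exon reads. The median log2 of the 36 genes was 1.80, beside 0.99 within that range. All 32 genes called had more scaled intron reads, and 24 of them had more scaled exon reads too, so the higher ratios did not come from fewer exon reads alone. Summed over the 36 genes, there were 3655 intron and 199572 exon reads at 25 °C, against 2110 and 187490 at 16 °C. The summed ratio was 1.63-fold higher. Genes within the same range of exon reads summed to 333825 and 13896817 at 25 °C, against 209657 and 17071429 at 16 °C. All genes summed to 449772 and 17725845 at 25 °C, against 314675 and 21702143 at 16 °C. The summed ratio rose less in the 36 genes than in either of these sets. Of the intron reads of the 36 genes, imb-2 alone held 11.6% at 25 °C and 33.6% at 16 °C. Without imb-2, a choice made after its values were seen, the summed ratio was 2.14-fold higher.

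**Figure D1:**
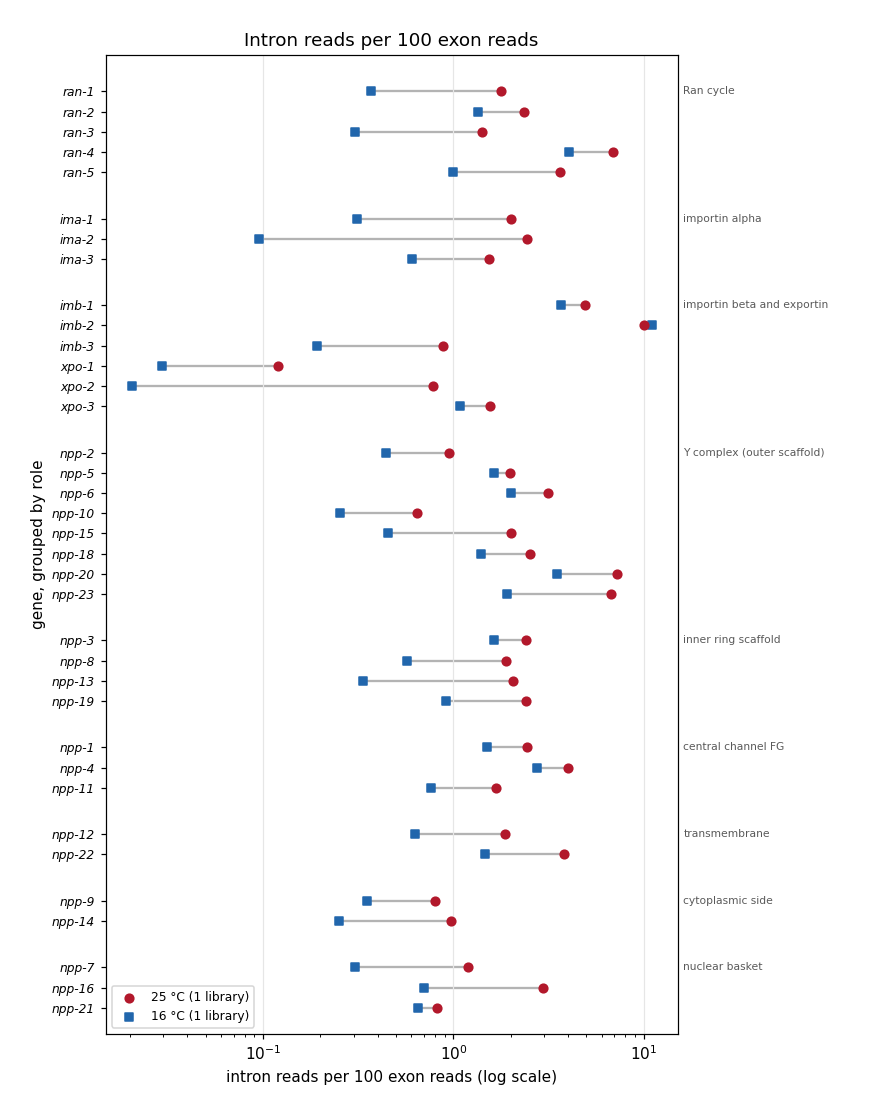
Intron reads per 100 exon reads (log axis) of the 36 genes, grouped by role, in the 25 °C library (red circles) and the 16 °C library (blue squares), 1 library each. The red circle lies to the right in all genes but imb-2, and the widest gaps are those of xpo-2 and ima-2, which had 1 intron read each at 16 °C.

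The 5 genes of the Ran cycle all rose. ran-1 encodes Ran itself and lies on chromosome III (10746581 to 10747728, minus strand), with 189 bases of intron in all by the deposited lengths. It had 293 intron and 16494 exon reads at 25 °C, against 78 and 21130 at 16 °C. Its introns thus had many more reads at 25 °C while its exons had slightly fewer, and the ratio was 4.81-fold higher (3.73 to 6.26; Fisher exact test, adjusted p = 7.59e-40). This was the smallest p of the 36 genes, and ran-1 was also the one with the densest exon reads. One end of ran-1 overlaps rib-2 on the other strand, outside its introns.

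The regulators that charge and discharge Ran moved to different extents. ran-3, the exchange factor (RCC1) that loads Ran with GTP on chromatin, had 34 intron and 2420 exon reads at 25 °C, against 7 and 2294 at 16 °C, a 4.60-fold higher ratio (2.00 to 12.3; adjusted p = 4.08e-04 by the exact test). ran-2, the GTPase activator (RanGAP) of the cytoplasmic side, had 69 and 2954 reads at 25 °C, against 39 and 2907 at 16 °C, a 1.74-fold higher ratio (1.16 to 2.66). The intervals of this opposed pair overlap, so counting error does not separate them. ran-5, a Ran-binding protein related to RanBP3, had 49 and 1351 reads at 25 °C, against 16 and 1604 at 16 °C, and was 3.64-fold higher (2.02 to 6.88). ran-4, the transport factor NTF2 that returns Ran to the nucleus, had 67 and 974 reads at 25 °C, against 59 and 1466 at 16 °C. The ratio was 1.71-fold higher (1.17 to 2.49). Scaled by library total, its intron reads were 1.38-fold higher (0.955 to 1.99) and its exon reads 0.805-fold (0.741 to 0.873). The interval of its intron reads includes no difference, and the direction of its exon reads turns with the scaling (log2 of -0.31 by library total and 0.10 by the median exon ratio of all genes).

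Importin alpha proteins bind the nuclear localization signal of a cargo and join it to importin beta. In the worm ima-1 and ima-2 are known as germline genes, whereas ima-3 is also used in the soma. All 3 rose. ima-2 (chromosome I, 6315233 to 6317262, plus strand) had 14 intron and 575 exon reads at 25 °C, against 1 and 1045 at 16 °C. The counts are few, and its 25.4-fold ratio carried an interval of 3.85 to 1077 (adjusted p = 5.89e-05 by the exact test). ima-1 had 25 and 1245 reads at 25 °C, against 5 and 1610 at 16 °C, a 6.47-fold higher ratio (2.42 to 21.7). ima-3 was read most, with 93 and 6048 reads at 25 °C, against 41 and 6743 at 16 °C, and its ratio was 2.53-fold higher (1.73 to 3.75). The interval of ima-3 overlapped that of ima-1 and ended just below that of ima-2.

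The importin beta and exportin genes held both the highest and the lowest ratios of the 36, and 4 of 6 rose. xpo-2, the exportin (CAS) that brings importin alpha back to the cytoplasm, lies on chromosome I (318549 to 323352, minus strand). It had 36 intron and 4583 exon reads at 25 °C, against 1 and 4902 at 16 °C. Almost none of its intron sequence was read at 16 °C, and the 38.5-fold ratio had an interval of 6.48 to 1563 (adjusted p = 3.93e-09 by the exact test). Its neighbour imb-3, the importin related to human importin 5, lies 3559 bases away on the same strand. imb-3 had 68 and 7667 reads at 25 °C, against 19 and 9884 at 16 °C, a 4.61-fold higher ratio (2.74 to 8.13).

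xpo-1, the exportin CRM1 that recognises leucine-rich export signals, had the most exon reads of all 36 genes at 25 °C and few intron reads. It had 29 intron and 24122 exon reads at 25 °C, against 5 and 17047 at 16 °C, a 4.10-fold higher ratio (1.57 to 13.6). Genes on the other strand overlap its introns, and the sources used here do not say whether the counting used strand. imb-1, importin beta, had 224 and 4550 reads at 25 °C, against 159 and 4337 at 16 °C, and its 1.34-fold higher ratio (1.09 to 1.66; adjusted p = 0.0228 by the exact test) was the lowest of those called.

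imb-2 and xpo-3 were not called. imb-2, transportin, which imports RNA-binding proteins, lies on chromosome II (14365701 to 14373901, plus strand) and has 4963 bases of intron. It had 425 intron and 4227 exon reads at 25 °C, against 709 and 6449 at 16 °C. It had about 10 intron reads per 100 exon reads in both libraries, 10.1 at 25 °C and 11 at 16 °C, and the ratio of 0.915 (0.804 to 1.04) missed the threshold of the exact test (adjusted p = 0.366). Its interval ends at 1.04, below the interval of every gene that was called, imb-1 included. xpo-3, the tRNA exportin, had 21 and 1342 reads at 25 °C, against 21 and 1940 at 16 °C, and its ratio of 1.45 (0.748 to 2.79; adjusted p = 0.516 by the exact test) has an interval that includes both no difference and the median rise of 2.54-fold.

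**Figure D2:**
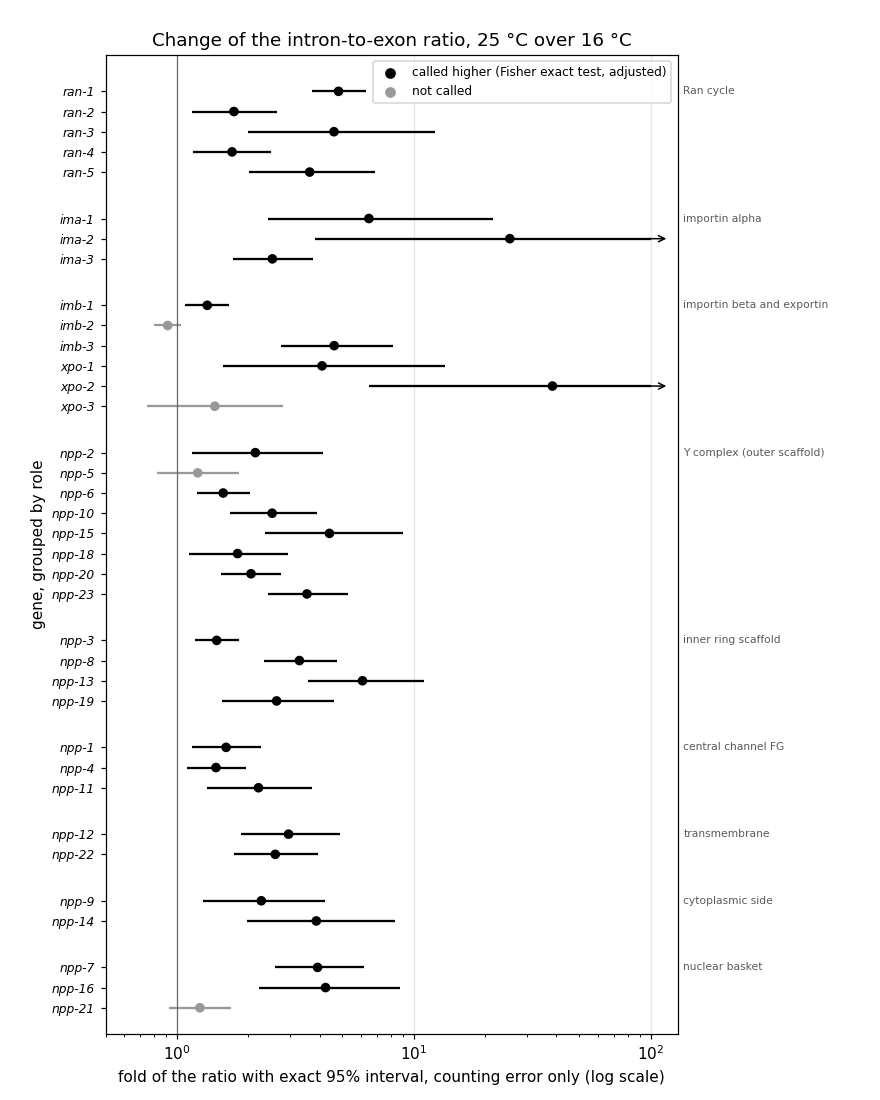
Fold of the intron-to-exon read ratio, 25 °C over 16 °C, with exact 95% intervals for counting error (log axis). Points in black were called higher and points in grey (imb-2, xpo-3, npp-5 and npp-21) were not, and the arrows mark the intervals of ima-2 and xpo-2, which end beyond the axis.

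Among the 22 nucleoporin genes the ratio rose in 20 and fell in 0, with a median log2 of 1.24, and npp-5 and npp-21 were not called. In the Y complex, the outer ring of the scaffold, 7 of 8 rose. Its member npp-15, the worm Nup133, had 62 intron and 3086 exon reads at 25 °C, against 12 and 2632 at 16 °C, a 4.41-fold higher ratio (2.34 to 9.0; adjusted p = 1.77e-06 by the exact test). npp-15 and ran-2 are neighbours on chromosome III, 479 bases apart on the same strand, and their intervals overlap, so counting error does not separate them. npp-23, the worm Nup43, had 111 and 1640 reads at 25 °C, against 39 and 2040 at 16 °C, a 3.54-fold higher ratio (2.42 to 5.27). npp-20, the worm Sec13, which also serves in vesicle coats, had 131 and 1816 reads at 25 °C, against 85 and 2422 at 16 °C, a 2.06-fold higher ratio (1.54 to 2.75).

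The weakest differences of the Y complex were in 2 of its large subunits. npp-6, the worm Nup160, had 184 intron and 5848 exon reads at 25 °C, against 99 and 4935 at 16 °C, a 1.57-fold higher ratio (1.22 to 2.03). The gene slx-1 overlaps an npp-6 intron on the same strand, which strand-aware counting would not resolve. npp-5, the worm Nup107, had 60 and 3015 reads at 25 °C, against 48 and 2953 at 16 °C, and its ratio of 1.22 (0.821 to 1.83; adjusted p = 0.601 by the exact test) was not called. The other Y complex genes npp-2, npp-10 and npp-18 rose 2.14-fold, 2.52-fold and 1.80-fold, and npp-2 lay close to the threshold (adjusted p = 0.0418 by the exact test). npp-10 is cut into a channel and a scaffold protein (Nup98 and Nup96), which RNA counts cannot tell apart.

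All 4 genes of the inner ring rose, by 1.47-fold to 6.08-fold. npp-13, the worm Nup93 (chromosome I, 2097346 to 2123443, plus strand), had 111 intron and 5422 exon reads at 25 °C, against 16 and 4748 at 16 °C. The ratio was 6.08-fold higher (3.57 to 11; adjusted p = 4.15e-14 by the exact test), the largest of the npp genes. npp-8, the worm Nup155, had 171 and 9096 reads at 25 °C, against 42 and 7351 at 16 °C, and was 3.29-fold higher (2.33 to 4.74). npp-19, the worm Nup53, had 46 and 1916 reads at 25 °C, against 22 and 2416 at 16 °C, and was 2.64-fold higher (1.55 to 4.62). npp-3, the worm Nup205, had 258 and 10740 reads at 25 °C, against 133 and 8150 at 16 °C, and its 1.47-fold higher ratio (1.19 to 1.83) lay below the intervals of npp-13 and npp-8. Other genes overlap introns of npp-13, npp-8 and npp-3, so the origin of their intron reads is uncertain.

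The 3 FG nucleoporins of the central channel rose by 1.46-fold to 2.21-fold. npp-4, the worm Nup58, had 129 intron and 3218 exon reads at 25 °C, against 87 and 3173 at 16 °C, a 1.46-fold higher ratio (1.10 to 1.95). Its partners npp-1 (Nup54) and npp-11 (Nup62) rose 1.61-fold and 2.21-fold. Both transmembrane genes rose. npp-12, the worm gp210, had 108 and 5778 reads at 25 °C, against 23 and 3643 at 16 °C, a 2.96-fold higher ratio (1.87 to 4.88), and npp-22, the worm NDC1, rose 2.60-fold (1.75 to 3.95). The interval of npp-12 overlaps that of npp-4, and no role was tested against another.

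On the faces of the pore 4 of 5 genes rose. On the nuclear basket npp-16, the worm Nup50, had 49 intron and 1653 exon reads at 25 °C, against 12 and 1717 at 16 °C, a 4.24-fold higher ratio (2.21 to 8.79). npp-7, the worm Nup153, had 130 and 10925 reads at 25 °C, against 28 and 9234 at 16 °C, a 3.92-fold higher ratio (2.59 to 6.14). Both intervals lie above that of npp-21, the worm TPR, which forms the basket filaments. npp-21 had 115 and 14029 reads at 25 °C, against 77 and 11748 at 16 °C, and its ratio of 1.25 (0.928 to 1.69; adjusted p = 0.326 by the exact test) was not called. The gene osm-8 overlaps an npp-21 intron on the other strand. On the cytoplasmic face npp-14, the worm Nup214, had 46 and 4715 reads at 25 °C, against 11 and 4372 at 16 °C, a 3.88-fold higher ratio (1.98 to 8.31), and npp-9, the Ran-binding Nup358, rose 2.27-fold (1.29 to 4.20).

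**Figure D3:**
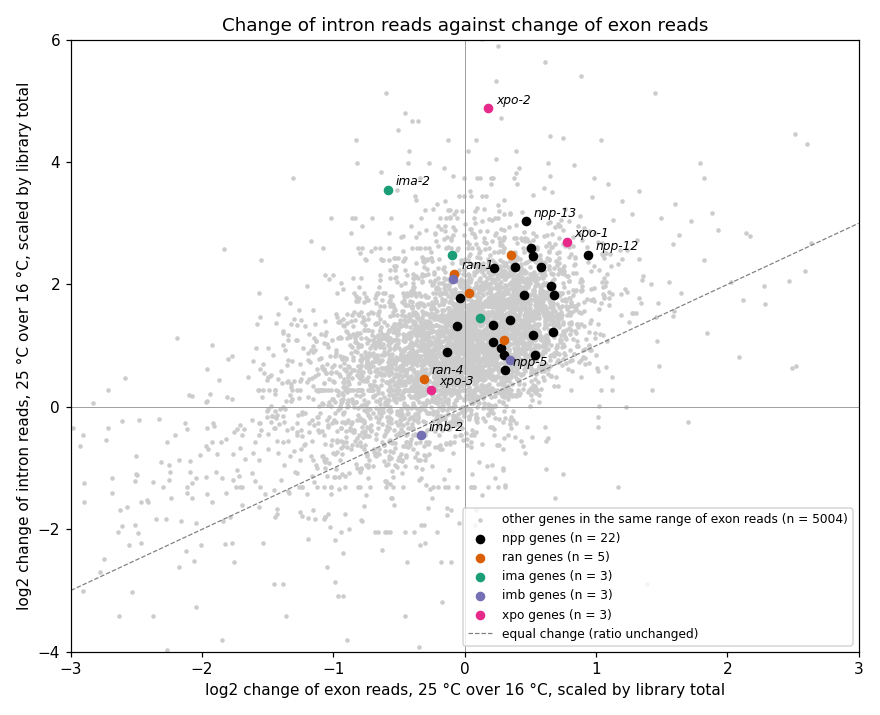
Log2 change of intron reads (vertical) against log2 change of exon reads (horizontal), 25 °C over 16 °C, both scaled by the library total with 0.5 reads added. The 36 genes are coloured by family over 5004 other genes in the same range of exon reads (grey, 125 of them outside the axes), and 35 of the 36 lie above the dashed line of equal change, imb-2 alone below it.

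Exon reads of the same genes moved far less than intron reads. At library-total scaling 0 of 36 genes were at least 2-fold higher at 25 °C and 0 at least 2-fold lower, where 5.81% of all 14313 genes above an exon minimum (10 reads in either library) were higher and 33.6% lower, or 2.22% and 9.78% within the same range of exon reads. The median log2 was 0.30, beside -0.42 over all genes and -0.03 within that range, and 26 of 36 genes (72.2%) lay above 0, beside 47.4% within that range. Scaling by the median exon ratio of all genes moves every value up by 0.42, and 35 of 36 genes then lay above 0, with 5 (13.9%) at least 2-fold higher. At that scaling 72.8% of genes within the same range of exon reads and 7157 of all 14313 genes lay above 0, and 9.72% within that range and 11.2% of all genes were at least 2-fold higher. The transport genes whose sign flips with the scaling are ima-1, imb-2, imb-3, npp-19, npp-20, npp-23, ran-1, ran-4 and xpo-3.

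The nucleoporin genes had more exon reads at 25 °C in 19 of 22 cases at library-total scaling and in 22 of 22 with the median ratio. npp-12 differed most, with an RPKM (exon reads scaled by exon length in kb and by library total) of 51.3 at 25 °C, against 26.7 at 16 °C, a 1.92-fold higher level (1.84 to 2.00). npp-9 had an RPKM of 106.3 at 25 °C and 66.5 at 16 °C (1.60-fold, 1.54 to 1.66), and npp-3 had 112.2 at 25 °C and 70.3 at 16 °C (1.60-fold, 1.55 to 1.64). The 3 with lower exon reads at library-total scaling were npp-20 at 0.908-fold (0.854 to 0.966), npp-19 at 0.961-fold (0.904 to 1.02) and npp-23 at 0.974-fold (0.912 to 1.04). All 3 lay above 0 with the median ratio, and the intervals of npp-19 and npp-23 include no difference.

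Among the transport receptors and Ran genes, levels went both ways. xpo-1 had an RPKM of 288.1 at 25 °C, against 168.1 at 16 °C, and was 1.71-fold higher (1.68 to 1.75). imb-1 had 64.0 at 25 °C and 50.4 at 16 °C (1.27-fold, 1.22 to 1.33), and ran-3 had 61.6 at 25 °C and 48.2 at 16 °C (1.28-fold, 1.21 to 1.35). ima-2 was lowest against its 16 °C level, with 17.5 at 25 °C and 26.3 at 16 °C, or 0.667-fold (0.601 to 0.739), and it was the 1 gene of the 36 that stayed below 0 on the log2 scale with the median ratio, at -0.17. Also lower at library-total scaling were imb-2 at 0.794-fold (0.764 to 0.826), ran-4 at 0.805-fold (0.741 to 0.873) and xpo-3 at 0.838-fold (0.781 to 0.899), all 3 of which turned above 0 with the median ratio.

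Per kb of exon, ran-1 stood far above the others, with an RPKM of 755.6 at 25 °C and 799.1 at 16 °C. xpo-1 came next in both libraries. The median gene had 76.5 at 25 °C and 68.3 at 16 °C, and the lowest were ima-2 at 25 °C (17.5) and xpo-3 at 16 °C (22). Among importin alpha genes ima-3 was the highest in both, with 120.3 at 25 °C and 110.7 at 16 °C, whereas ima-1 had 35.7 at 25 °C and 38.1 at 16 °C.

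**Figure D4:**
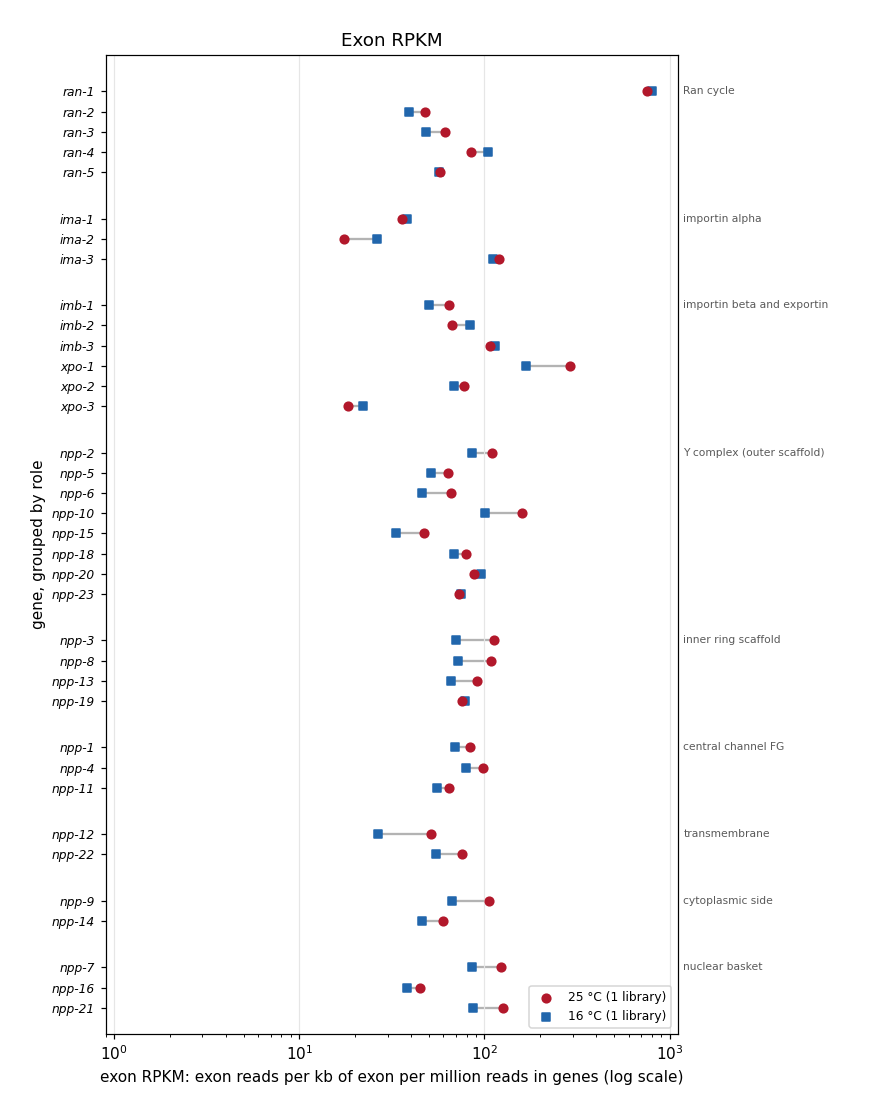
Exon RPKM (log axis) of the 36 genes, grouped by role, in the 25 °C library (red circles) and the 16 °C library (blue squares), 1 library each. ran-1 lies at 755.6 at 25 °C and 799.1 at 16 °C, xpo-1 at 288.1 at 25 °C and 168.1 at 16 °C, and most nucleoporin genes show the 25 °C point to the right.

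Set per base, the introns of these genes were read far less densely than their exons. The median intron density was 9.53% of the exon density at 25 °C and 3.02% at 16 °C, by the deposited lengths. The median was 4.04% at 25 °C and 1.87% at 16 °C within the same range of exon reads, and 4.84% at 25 °C and 2.15% at 16 °C over all genes. Among the transport genes 17 of 36 reached 10% at 25 °C and 1 at 16 °C. No share of other genes reaching 10% is given, so only the medians stand beside each other. They are not matched for intron length. The median summed intron length was 640.5 bases in the 36 genes, 955.5 within the same range of exon reads and 654 over all genes. ran-4 was the highest in both, at 33.9% at 25 °C and 19.8% at 16 °C, from 129 bases of intron. By the deposited lengths xpo-1 was the lowest at 25 °C (0.518%) and xpo-2 at 16 °C (0.0388%, from 1 read). The annotation used here gives intron lengths over 1.5-fold longer for 6 genes (npp-3, npp-8, npp-13, npp-21, xpo-1 and xpo-3), so their densities depend on the annotation. All 6 have another gene overlapping an intron. Whether the deposited intron reads cover the added bases was not tested. If they do not, the densities by the annotated lengths are too low. For xpo-1 it gives 5264 bases of intron against 1069 deposited, and by the annotated lengths xpo-1 was the lowest in both libraries, at 0.0989% at 25 °C and 0.0241% at 16 °C. For npp-13 it gives 22832 against 7316, and the density of 0.914% at 25 °C and 0.150% at 16 °C became 0.293% at 25 °C and 0.0482% at 16 °C. The median by the annotated lengths, a setting chosen after seeing the data, was 8.33% at 25 °C and 2.55% at 16 °C, with 17 genes again at 10% or more at 25 °C. ran-1 had 11.3% at 25 °C and 2.35% at 16 °C.

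Intron length and position varied widely among the 36 genes. They lie on chromosomes I (13), II (7), III (7), IV (6) and V (3), and 0 lie on X. Across the 36 genes, as a description, the log2 ratio had a Spearman correlation of -0.46 with summed intron length (Pearson -0.24 on log10 length) and of -0.47 with intron density at 16 °C (Pearson -0.62 on log10 density). The second pair shares the intron reads at 16 °C, and all points share the same 2 libraries. Another annotated gene overlaps 15 of the 36, in an intron in 7 (npp-3, npp-6, npp-8, npp-13, npp-21, xpo-1 and xpo-3) and elsewhere in ima-3, imb-1, imb-2, npp-9, npp-10, npp-12, npp-16 and ran-1. Of the 29 with no gene overlapping an intron, 27 rose.

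Other genes of the same pathways were counted from 3 lists, and their shares called stand beside the 55.3% of genes within the same range of exon reads, or 61.4% with at least 20 intron reads. In the nuclear envelope and lamina list 11 of 14 genes rose and 0 fell, with a median log2 ratio of 1.25. Its largest rise was in emr-1, emerin, which had 27 intron and 1341 exon reads at 25 °C, against 5 and 2059 at 16 °C (8.29-fold, 3.14 to 27.6). lem-2, another inner membrane protein, rose 5.83-fold (2.67 to 15.1), and the smallest difference among genes with at least 20 intron reads was in nemp-1, at 1.39-fold (1.15 to 1.69). sun-1, with 1 intron read at 25 °C and 4 at 16 °C, had a lower ratio that was not called. In the mRNA export list 12 of 16 rose and 0 fell (median 1.28), with thoc-3 and thoc-1 of the THO complex 3.90-fold (1.69 to 10.1) and 3.66-fold (2.17 to 6.45) higher. Its member thoc-2 had 58 and 5287 reads at 25 °C, against 70 and 5153 at 16 °C, a ratio of 0.808 (0.559 to 1.16) that was not called.

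In the SUMO list, whose modifier is attached to RanGAP in vertebrates, 6 of 9 rose and 0 fell (median 1.21). Of the 9 genes 7 had at least 20 intron reads, and ulp-4 and ulp-5, which had fewer, were not called. The share called is thus not matched for reads to the shares given above, and was not tested against them. smo-1, SUMO itself, had 223 intron and 9712 exon reads at 25 °C, against 103 and 18061 at 16 °C (4.03-fold, 3.17 to 5.14), and its conjugating enzyme ubc-9 was 3.92-fold higher (2.17 to 7.37). aos-1, part of the activating enzyme, had 27 and 1785 reads at 25 °C, against 27 and 3235 at 16 °C, and was not called. In the nuclear envelope, mRNA export and SUMO lists alike, 0 genes had a lower ratio at an unadjusted p under 0.05 by the Fisher exact test. Maternal markers rose in 3 of 16, of which 4 had at least 20 intron reads. Median log2 ratios were 1.55 for maternal, 1.39 for early zygotic, 0.73 for late embryo tissue and 1.34 for larval, adult and sperm markers. Many of these markers had few intron reads, which limits both the calls and the medians. A low count called among them does not show a smaller difference. Early zygotic markers rose in 5 of 9, late embryo tissue markers rose in 4 of 14 and fell in 1, the pharynx factor pha-4, and larval, adult and sperm markers rose in 0 of 8, with 1 gene higher at an unadjusted p under 0.05 by the exact test (daf-22, 3.15-fold, 1.15 to 9.05). In the authors' deposited table, 12 of the 36 transport genes pass its adjusted p of 0.01, where 5.57% of all its genes do. That share includes genes with few reads, and no such share was counted within the range of exon reads of the 36. The deposited p-values match a Fisher exact test on the same counts, and the Bonferroni adjustment at 0.01 given below also leaves 12. This count is therefore not separate evidence. The deposited fold for ran-1 is 4.81.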

How the data were processed

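Per the submitters' processing notes, the authors used Trimmomatic, TopHat2 and HTSeq. The sources used here give neither their genome build nor the annotation or strand setting. Per the file headers, the deposited table holds raw counts of exon and intron reads of each gene in each library, summed exon and intron lengths, a fold that is the ratio of the 2 intron-to-exon ratios, a p-value and its adjusted value. The deposited fold matched the ratio of the counts within 0.01% in 10860 of 10860 genes with a finite fold above 0, and the deposited p-value a Fisher exact test within 2% in 19487. Columns were matched to libraries by the marks in the source names.

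Ratios of single genes are ratios of counts with conditional exact 95% intervals, and exon or intron folds are scaled by library total with exact binomial intervals. Medians use log2 with 0.5 reads added. Fisher exact tests (scipy 1.17.1) were adjusted by Benjamini-Hochberg at 0.05 over 14972 genes, and the code was checked on simulated counts. The simulation had counting error only, with no library-wide intron shift and no variation between libraries. It therefore gives no support to the calls in these data. Positions came from Ensembl release 115 (WBcel235), where 36 of 36 genes matched by identifier and the summed intron length was equal in 24. PCR reads are not independent molecules, so intervals cover counting error only. Genes, lists and the naming rule were chosen with earlier results of these data known. That rule took every ran, ima, imb and xpo gene, the 5 highest and 5 lowest npp ratios with at least 20 intron reads, the 3 highest and 3 lowest npp exon changes, and 3 genes of each other list. Other genes were named after their values were seen.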

Additional observations from a re-analysis of the deposited data

How the results depend on the processing

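The median log2 ratio of 1.35 stayed between 1.32 and 1.38 under a pseudocount of 1, other read minimums, genes with no overlap and the inclusion of 4 further npp genes, the last chosen after seeing the data. The count of 32 rises became 12 with a Bonferroni adjustment at 0.01, 20 of 21 among genes that overlap no other gene, since fewer genes are then counted, and 31 with no minimum, where npp-2 was lost. The exon median of 0.30 became 0.71 with the median exon ratio, and the 0 genes at least 2-fold higher in exon reads became 5 with that scaling, while 5 were at least 1.5-fold higher at library-total scaling. No gene of the 36 fell under any setting. Few intron reads at 16 °C limit ima-2 and xpo-2. No paired analysis was possible because each temperature has a single library with no replicate number.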

Other observations

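A further 4 genes carry npp symbols in the reference gene names but none in the deposited table, and so fell outside the rule. npp-24 had 79 intron and 1123 exon reads at 25 °C, against 40 and 1351 at 16 °C, a 2.38-fold higher ratio (1.59 to 3.60; Fisher exact test, adjusted p = 7.89e-05). npp-27 had 56 and 1618 reads at 25 °C, against 43 and 2077 at 16 °C, a 1.67-fold higher ratio (1.10 to 2.56; adjusted p = 0.0478 by the exact test). npp-26 had 8 and 145 reads at 25 °C, against 0 and 196 at 16 °C (adjusted p = 0.00623 by the exact test). npp-25 had 107 and 1205 reads at 25 °C, against 118 and 1661 at 16 °C, and its ratio of 1.25 (0.943 to 1.66) was not called.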
